A study of Solanum lycopersicum with 12 samples.

Results

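Roots and shoots of mock-sprayed control plants were compared at the transcript level in tomato, Solanum lycopersicum cv. Moneymaker. The comparison used the 6 mock-sprayed libraries of 12 in the series, 3 of root and 3 of shoot, and no library from plants sprayed with piperonylic acid. Of 34688 loci in the deposited table, 15317 reached a mean of 10 normalized counts over these 6 libraries and were tested. Seedlings were moved to pots 4 days after germination and kept at 24 °C with 16 hours of light. Leaves were sprayed with the mock solution on days 7 and 14 after transplantation, and tissue was taken on day 15. Both tissues therefore come from plants that received a leaf spray, and no unsprayed plant was used here. Each sample was a pool of 4 plants whose roots and shoots were ground apart, and the sources used here do not say whether a root and a shoot sample of the same number share plants. RNA was read by 3′-end sequencing, in which a transcript gives reads from its end only, so that a count depends little on transcript length. A normalized count here is the number of reads of a locus divided by 1 size factor per library.

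A shoot is built around photosynthesis, and its leaf cells are known for very abundant transcripts of light-harvesting and carbon-fixing proteins encoded in the nucleus. A root takes up water and mineral ions, anchors the plant, and seals its vascular tissue with Casparian strips and suberin. Many plant genes with related products lie side by side as tandem copies, and tomato locus identifiers are numbered by chromosome. Order along a chromosome was taken here from the identifiers alone, and no positions were used. The files and the reference table pair none of the locus identifiers with a gene name. The tissue labels could therefore not be checked against marker genes such as those of light harvesting or of the Casparian strip, and loci are given by identifier and chromosome, without a gene role.

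The mock root libraries held 6158777, 6262275 and 6175406 reads, and the mock shoot libraries 6261271, 7127537 and 4214169. The third shoot library was the shallowest. Replicates were compared at loci with a mean of 50 normalized counts or more in their tissue. Over 10049 such loci in root, the median absolute log2 difference between 2 root libraries was 0.134 to 0.167, and 0.418 to 0.597% of loci differed by more than 2-fold. Over 10356 such loci in shoot, mock shoot replicates 2 and 3 differed by a median of 0.162, with 0.425% of loci beyond 2-fold. Both pairs with mock shoot replicate 1 were wider, with medians of 0.190 and 0.219 and 1.89 and 2.78% of loci beyond 2-fold, so this library stood apart from the other shoot libraries. Between the tissues the difference was taken between averages of 3 libraries, which vary less than single libraries, so it is not measured alike. Its median absolute log2 value was 0.67, and 36.8% of the 10845 loci that reached a mean of 50 over both differed by more than 2-fold.

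The first question was how many loci differ between the 2 tissues, and by how much. Of the tested loci, 10129 differed (66.1%), with 5147 higher in root (33.6%) and 4982 higher in shoot (32.5%), by limma with an adjusted p below 0.05. With the deposited scaling, the median size of the difference was larger on the shoot side, and this was not checked with another scaling. The median log2 difference, root minus shoot, was 1.16 among loci higher in root and -1.44 among loci higher in shoot. Loci with no read in the lower tissue lie beyond these medians also at the limit that 0 reads allow, so the medians do not depend on them. Over all tested loci the median log2 difference was 0.02, and from the 10th to the 90th percentile differences ran from -2.55 to 1.93. The 3 root values and the 3 shoot values did not overlap at 11012 loci (71.9%), and they overlapped at 119 of the loci called. Because the samples are bulk tissue, fewer cells of a type and less RNA per cell cannot be told apart in any of these differences.

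**Figure D1:**
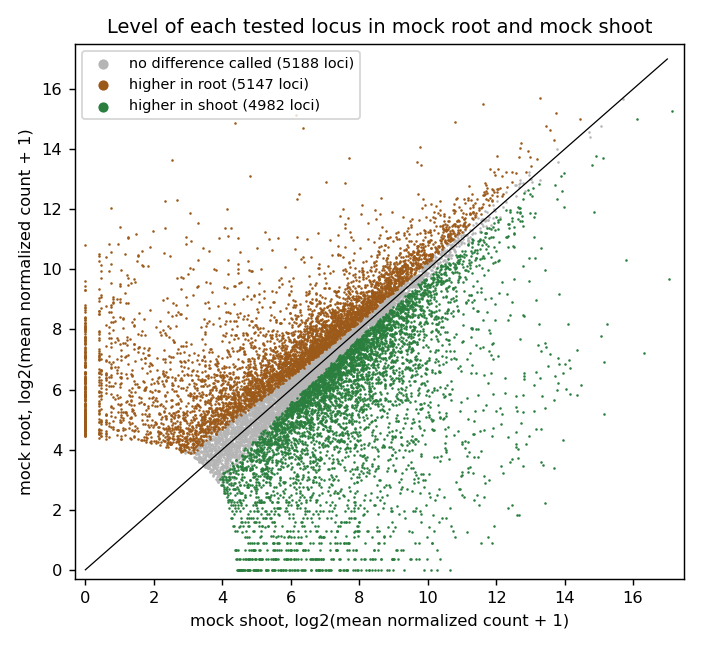
Each point is 1 of the 15317 tested loci, placed by log2(mean normalized count + 1) in mock shoot (x axis) and in mock root (y axis), n = 3 libraries each. Brown points are the 5147 loci called higher in root, green points the 4982 called higher in shoot, grey points the 5188 not called, and the line marks equal levels; the vertical and horizontal rows of points at the left and lower edges are loci with no or almost no reads in 1 tissue.

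The balance between the tissues depended on the size of the difference and on the scaling. At 4-fold or more, 1482 loci were higher in root (9.68% of those tested) and 1921 were higher in shoot (12.5%), whereas scaling libraries to their total reads gave 1776 and 1657. At 64-fold or more the counts were 317 and 386, or 351 and 341 with total reads, and at 256-fold or more 97 and 109, or 107 and 91. Small differences were also called in number. Of the loci called, 3980 (39.3%) differed by less than 2-fold, and the smallest log2 difference called was 0.23 in size. The loci that were not called were mostly measured well enough to bound their difference. Of these 5188 loci, 4092 had a 95% confidence interval from limma that lay within a 2-fold difference in either direction, while 1096 had an interval that reached beyond it. A missed call at the latter does not show an equal level. Over all tested loci, called or not, the interval lay within 2-fold at 6267 (40.9%).

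The reads of each tissue were spread over loci in a different way. In mock root 639, 666 and 647 loci were needed to hold 50% of the reads of a library, and in mock shoot 400, 474 and 476. All 3 root values were above all 3 shoot values. The single most abundant locus held 1.16, 0.996 and 1.02% of reads in the root libraries and 3.55, 2.81 and 2.38% in the shoot libraries. In shoot it was the same locus of chromosome 8 in all 3 libraries, and in root it took only 0.00753 to 0.0107% of reads. The most abundant root locus was one of chromosome 11 in replicates 1 and 2 and one of chromosome 1 in replicate 3. The first of these held 0.138 to 0.161% of reads in shoot, and the second 0.767 to 0.812%. Both loci were thus also read in shoot, the first at a much lower share than in root. The 100 most abundant loci held 24.0 ± 0.39% of root reads and 30.5 ± 1.60% of shoot reads, and the 1000 most abundant 57.8 ± 0.34% and 62.7 ± 1.42% (SD, n = 3). A two-sided exact permutation test gave p = 0.1 for each of these measures, the smallest that 3 against 3 libraries allow, and 0.1 after adjustment over 9 measures of this kind.

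**Figure D2:**
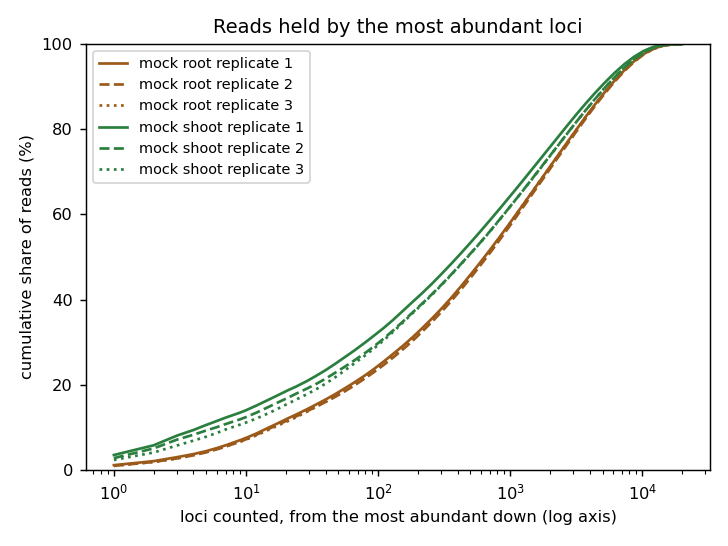
Cumulative share of a library's reads (y axis, %) held by its most abundant loci, counted from the top down (x axis, log axis), with 1 line per library. The 3 shoot lines (green) lie above the 3 root lines (brown) over the first 1000 loci, and mock shoot replicate 1 is the highest, with 64.3% of its reads in 1000 loci.

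The most abundant loci of each tissue were then looked up in the other. Among the 100 most abundant loci of shoot by mean share of reads, 76 were called higher in shoot, 56 were at least 4-fold higher there and 41 at least 64-fold higher. Among the 100 most abundant of root, 63 were called higher in root, 16 were at least 4-fold higher and 7 at least 64-fold higher. Of these root loci 15 were called higher in shoot, and of the shoot loci 11 were called higher in root. Both lists had 39 loci in common, 39% of each. For the first 10 the lists had 3 loci in common. Of the 10 in shoot, 9 were called higher in shoot, 7 were at least 4-fold higher and 6 at least 64-fold higher. Of the 10 in root, 7 were called higher in root, 5 were at least 4-fold higher and 2 at least 64-fold higher. These loci were picked by their level in a tissue, which favours a higher level there, so the counts are a description. They can be set beside the 9.68% and 12.5% of all tested loci that were at least 4-fold higher in root and in shoot.

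The share of a tissue's reads that came from its own strongly preferred loci followed the same pattern. Loci at least 4-fold higher in root held 15.6 ± 0.70% of root reads and 0.897 ± 0.034% of shoot reads (SD, n = 3). Loci at least 4-fold higher in shoot held 34.5 ± 0.43% of shoot reads and 1.78 ± 0.069% of root reads. The 386 loci at least 64-fold higher in shoot alone made up 21.3 ± 0.70% of shoot reads, against 5.80 ± 0.36% of root reads for the 317 loci at the same fold in root. The level behind these shares differed as well. The median locus of the 64-fold group had 634.8 normalized counts in shoot for the shoot group and 259.3 in root for the root group. The same values defined these groups, so no test was made on their shares.

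At 4-fold or more, the split between the tissues went with how abundant a locus was. Among the 2739 loci with a mean of 10 to 30 normalized counts, 455 were at least 4-fold higher in root (16.6%) and 347 in shoot (12.7%). Between 30 and 100 the shares were 11.0% and 11.1%. Above that level shoot had the larger share, with 6.61% for root and 11.5% for shoot between 100 and 300, and with 6.06% and 14.2% between 300 and 1000. Among the 283 loci at 3000 or more, 16 were at least 4-fold higher in root (5.65%) and 78 in shoot (27.6%). In counts at this fold, root thus had the larger share in the lowest class and shoot in the 4 highest. This also held with total-read and quantile scaling, which both gave root the larger share between 30 and 100. Over all calls with the deposited scaling, shoot was ahead between 100 and 1000 and at 3000 or more. The margin was small between 100 and 300, with 33.5% for root and 34.2% for shoot. Between 300 and 1000 the shares were 37.1% and 39.0%. Among all calls root was ahead below 100, though only at 30.9% against 30.5% between 30 and 100. It was also ahead between 1000 and 3000, at 41.9% against 38.3%. The order over all calls was not checked by level with another scaling. At 256-fold or more, root was ahead between 100 and 1000 and shoot above that level. The share of loci called in either direction went from 56.1% in the lowest of these classes to 84.1% in the highest, while the median standard error of the log2 difference was 0.34 in the lowest and 0.13 in the highest. Errors were thus larger where reads were few, and a difference of a given size was harder to call there.

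**Figure D3:**
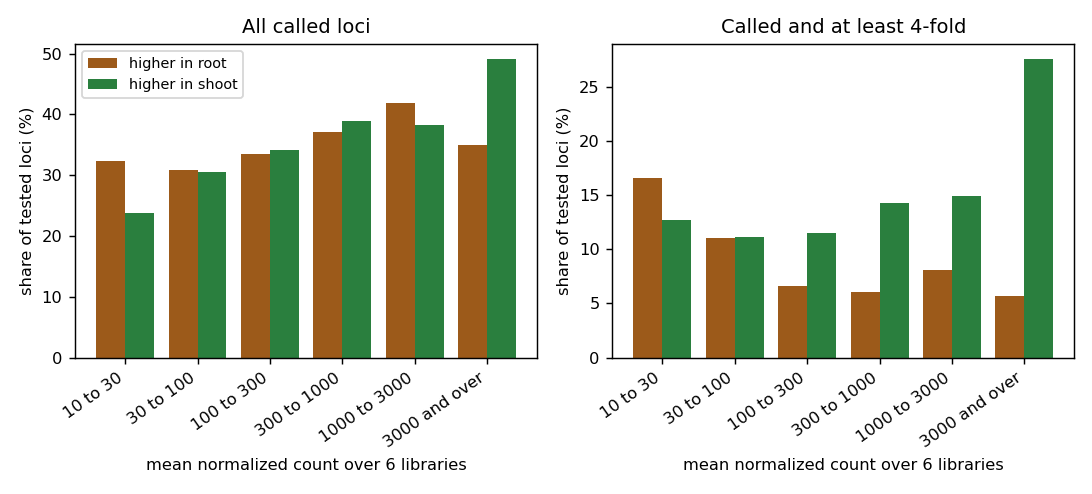
Share of tested loci (y axis, %) called higher in root (brown) or higher in shoot (green) by class of mean normalized count over the 6 libraries (x axis), for all calls (left) and for calls of at least 4-fold (right). At 4-fold or more the root bar is taller in the lowest class, 16.6% against 12.7%, and the shoot bar is taller in the highest, 27.6% against 5.65%.

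More loci were detected in the root libraries than in the shoot libraries. Brought to the same depth of 4214169 reads by calculation, the root libraries had 19159, 19234 and 19189 loci with at least 1 read and the shoot libraries 17949, 18509 and 18502. The groups did not overlap, and the means differed by 874.2 loci (two-sided exact permutation p = 0.1, the smallest possible). Mock shoot replicate 1 had the fewest. The difference was 688.7 loci without it and 854.4 to 968.7 when each of the other libraries was left out in turn.

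Loci read in 1 tissue alone were mainly root loci. With at least 10 reads in every root library and 0 reads in every shoot library there were 330 loci, and in the reverse direction there were 126. These numbers equal 2.15% and 0.823% of the number of tested loci. Reads were taken at the depth as deposited, and mock shoot replicate 3 was the shallowest library, with 4214169 reads. Without it the numbers were 381 and 147. A count of 0 allows up to 3 reads in a library, on average 3.63 normalized counts in shoot and 2.59 in root, for counting error only. Most of these loci were low. The 330 root loci had a median of 32.3 normalized counts in root, 8.91 times the limit in shoot, and the lowest was 2.46 times it. Of these root loci 1 exceeded 1000, at 1804, which was 497.2 times the limit in shoot. The 126 shoot loci had a median of 51.7 in shoot, 19.9 times the limit in root, and the lowest was 5.30 times it. The highest was at 1617, which was 623.9 times the limit in root. The lowest of these loci may thus differ by only a few fold. Of the root loci 221 had a mean over both tissues that was high enough for the test, and of the shoot loci 109. Their direction was fixed by how they were chosen. Among the called loci that were at least 64-fold higher in root, 110 of 317 had no read in any shoot library (34.7%), and among those at least 64-fold higher in shoot, 55 of 386 had no read in any root library (14.2%). The shoot group had the higher median level in its own tissue, as given above, and the part of that level in this difference was not tested.

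The loci at the ends of the range, and a pair that was level between tissues, show the spread of single values. Solyc01g066970.2 on chromosome 1 had 4510, 4610 and 3651 normalized counts in mock root and 1.15, 0.921 and 0 in mock shoot. Every root value lay far above every shoot value, and the shoot values came from 2 reads in all. The log2 difference was 11.37 ± 0.28 (standard error, limma adjusted p = 1.51e-09). Over the alternatives it ran from 9.55 with a pseudocount of 5 to 12.44 with DESeq2, wider than this standard error. The ratio of reads per size factor was 5537, with a 95% counting interval of 1533 to 45729. Solyc01g108860.3, also on chromosome 1, was the more abundant of the 2, with 15144, 12547 and 10581 in root and 2.29, 7.37 and 4.69 in shoot. It ranked 30th by level in root, and its log2 difference was 11.19 ± 0.29 (standard error, limma adjusted p = 2.23e-09), or 10.37 to 11.51 over the alternatives.

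In the other direction, Solyc02g062340.3 on chromosome 2 had 12443, 9413 and 11069 normalized counts in mock shoot and 1.75, 5.92 and 3.49 in mock root. It was high in all 3 shoot libraries and near the limit of detection in root, with 13 root reads in all. The log2 difference was -11.27 ± 0.28 (standard error, limma adjusted p = 1.76e-09), or -11.60 to -10.32 over the alternatives. Solyc03g005780.3 on chromosome 3 had 6858, 5941 and 6785 in shoot and 0, 5.07 and 2.61 in root, where it had 9 reads. Its log2 difference was -11.18 ± 0.53 (standard error, limma adjusted p = 7.35e-08), or -11.74 to -9.81 over the alternatives.

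The 2 most abundant loci within 0.1 of an equal log2 level were Solyc01g111170.3 and Solyc05g010425.1. Solyc01g111170.3 on chromosome 1 had 50977, 49130 and 54799 normalized counts in root and 56291, 50361 and 53449 in shoot. It ranked 2nd by level in root and 7th in shoot, and the values of the tissues overlapped. Its log2 difference was -0.05, with a 95% confidence interval of -0.46 to 0.36 (limma adjusted p = 0.831). Solyc05g010425.1 on chromosome 5 had 8550, 7295 and 8834 in root and 8715, 7107 and 9200 in shoot, with overlapping values. Its log2 difference was -0.02, with an interval of -0.33 to 0.29 (limma adjusted p = 0.926). An even level here is relative to the scaling. With libraries scaled to their total reads the 2 loci were higher in root by 0.29 and 0.32 on the log2 scale (limma adjusted p = 0.0484 and 0.0345), and with quantile scaling by 1.05 and 0.47 (0.000137 and 0.00485). Over all their alternatives the adjusted p ran from these quantile values to 0.973 and 0.937. In all, 1261 tested loci (8.23%) were within 0.1 of an equal level.

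**Figure D4:**
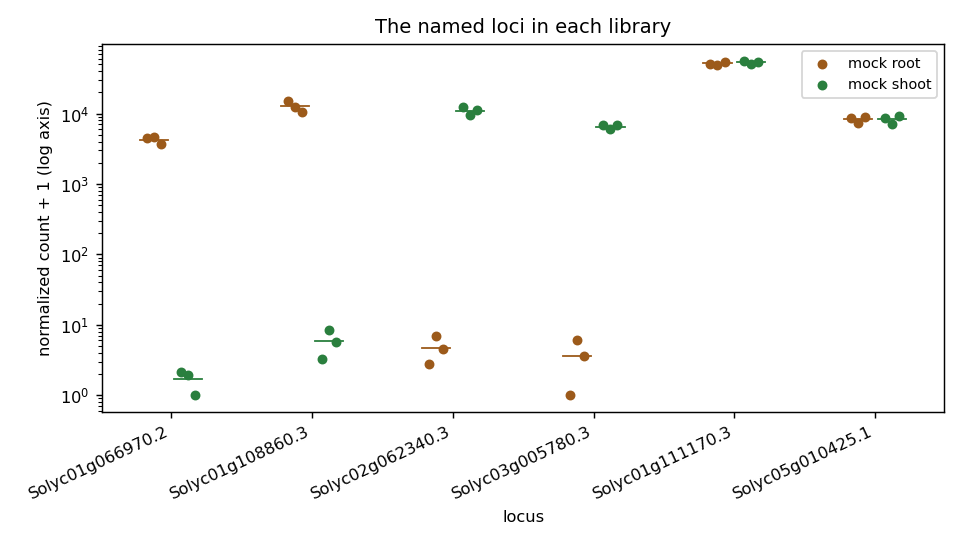
Normalized count + 1 (y axis, log axis) of the 6 named loci (x axis) in each mock root library (brown points) and each mock shoot library (green points), with a line at the mean of 3. The first 4 loci show no overlap between tissues, and the last 2, Solyc01g111170.3 and Solyc05g010425.1, overlap.

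Tissue preference was then followed along the chromosomes. Every one of the 12 chromosomes carried loci of both preferences in similar shares. From 61.9% of tested loci on chromosome 11 to 68.9% on chromosome 10 were called, beside 66.1% over the genome. Loci at least 4-fold higher in root made up 8.23% of those tested on chromosome 11 and 11.8% on chromosome 12, the lowest and the highest. For loci at least 4-fold higher in shoot the range was wider, from 9.62% on chromosome 11 to 14.7% on chromosome 8. Chromosome 11 was thus lowest in both classes. Of 578 loci that are placed on no chromosome, under the number 0, 6 were tested. Of these, 5 (83.3%) were higher in shoot, beside 32.5% of all tested loci. Most of the 5 are neighbours in identifier order, from Solyc00g500062.1 to Solyc00g500065.1.

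The tissue class of a locus was then set beside that of its neighbours in the order of identifiers, which may differ from the order of positions. Of 1478 loci at least 4-fold higher in root that had a following tested locus on the chromosome, 291 were followed by another locus of that class (19.7%). The share was 14.2% for the second locus along, 12.0% for the third and 10.4% for the locus 50 places away, near the 9.68% that the class takes of all tested loci. For shoot, 350 of 1917 loci were followed by a locus of the same class (18.3%), and the shares were 14.1%, 14.2% and 13.3% at the same distances, beside 12.5% of all tested loci. The next locus belonged to the shoot class after 10.0% of root loci, the second after 11.9% and the locus 50 places away after 11.8%. It belonged to the root class after 8.82% of shoot loci, and the shares were 10.7% for the second and 9.45% at 50 places. The share of shoot loci followed by a root locus thus showed no steady change with distance. Loci are not independent, and these shares are given without a test. Their exact binomial intervals cover counting error only, and for the next locus the 95% intervals were 17.7 to 21.8% in root and 16.6 to 20.1% in shoot. Where no other annotated locus came between the 2 identifiers, the shares were 21.8% and 19.8%.

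**Figure D5:**
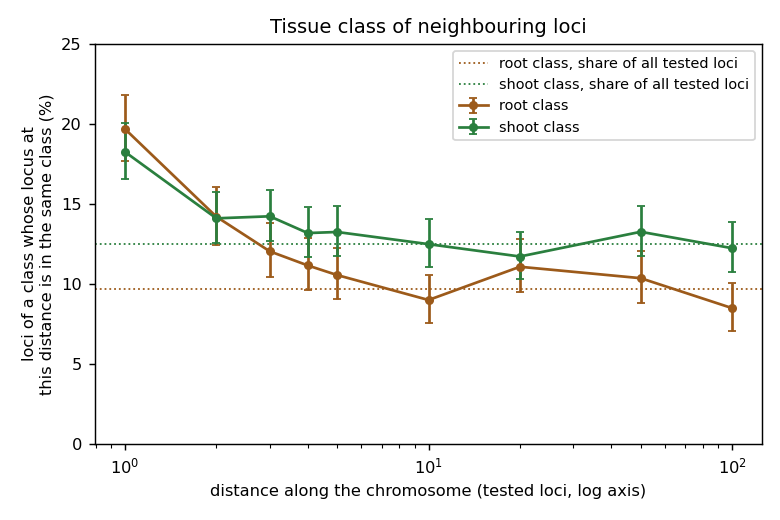
Share (y axis, %) of loci of a class whose locus at a given distance is of the same class. Classes are at least 4-fold higher in root (brown) or in shoot (green). The x axis (log axis) is that distance in tested loci along the chromosome, in identifier order. Bars are exact 95% binomial intervals and dotted lines the share of each class among all tested loci; both curves are highest for the next locus, at 19.7% and 18.3%, and lie near the dotted lines from about 10 loci on.

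Some preferences came in longer blocks of identifiers. Unbroken runs of 3 or more tested loci of one class numbered 54 in the root class, with 193 loci (13.0% of the class), and 57 in the shoot class, with 197 loci (10.3%). The longest was a run of 10 root loci on chromosome 7, within a stretch of 15 annotated loci in identifier order. Their log2 differences ran from 3.90 to 9.54, and the locus means in root ran from 104.8 to 1413 normalized counts. Summed over the 10 loci, the root libraries held 9072, 7033 and 6250 normalized counts and the shoot libraries 18.3, 21.2 and 10.9. Every root sum was far above every shoot sum.

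The longest run in the shoot class held 9 loci on chromosome 2, within 11 annotated loci. Its sums were 23284, 27641 and 33219 normalized counts in shoot and 158.4, 164.9 and 155.1 in root. A run of 7 shoot loci on chromosome 9 followed one another with no other annotated locus between their identifiers. Its sums were 23894, 23022 and 42686 in shoot and 784.8, 265.6 and 577.7 in root. Mock shoot replicate 3 was thus the highest in both blocks, and on chromosome 9 it stood well above the other 2, while no root library came near any shoot library. These 3 runs were picked after their values were seen. The sources used here do not say how reads that match several similar loci were counted. Values of neighbours that are near-identical copies, and of overlapping loci, are therefore uncertain one by one.

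The balance of calls, and the direction of differences near 0, changed with the scaling. The deposited size factors set the median locus at nearly the same level in both tissues, while the shoot libraries summed to more normalized counts, 7169543, 6563279 and 6582230, than the root libraries, at 5388276, 5296561 and 5381083. Scaled to total reads instead, an alternative added after the data had been seen, the median log2 difference moved by 0.33 toward root, with 7156 loci on the root side and 3760 on the shoot side. Root loci were then 65.6% of the calls, against 50.8% with the deposited scaling. Quantile scaling moved the median by 0.13, with 6030 and 4468. All differences given above are thus relative to a median locus that the deposited size factors set near 0.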

How the data were processed

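Messenger RNA of 3 mock root and 3 mock shoot pools was read with a Lexogen QuantSeq 3′ kit from 2 µg of RNA, per the labels' protocols. Programs listed in the submitters' processing notes are FastQC 0.11.8, Trimmomatic 0.38, STAR 2.6.1d and DESeq2. The sources used here give no counter, genome build, annotation or strand setting. The deposited values are a normalized signal, gene counts divided by a size factor, and whole reads could be recovered, since 100% of values lay within 0.01 of a whole multiple of what 1 read is worth. Of 12 columns, matched to samples by title, 6 were used.

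limma 3.58.1 (R 4.3.3, intensity trend, two-sided) was run on log2(value + 1), which understates the change of low loci, with Benjamini-Hochberg adjustment over 15317 loci. The labels do not describe the pools further, and p-values reflect only how these samples vary, which may be technical. Replicates differed by more than sampling noise (chi-square per degree of freedom 3.84 to 9.92). edgeR 4.0.16, which called 10266 loci from the recovered reads, and DESeq2 1.42.0, which called 9462, were alternatives, with pseudocounts of 0.5 and 5, other filters and scalings, quality weights, a replicate block and each library left out. Named loci were the 2 of highest and 2 of lowest log2 difference among called loci with a mean of 50 or more and no overlap, and the 2 most abundant within 0.1 of equal level. That form of the rule applied because 0 identifiers matched the reference table, so 28 gene lists, and the sequences of these loci, were not used. Members and lists were chosen with earlier results of these data known. The fit was checked on simulated counts. Equal-depth numbers are expected values from drawing reads without replacement. Intervals and floors cover counting error only, since the sources used here mention no molecular identifiers. Figures were drawn with matplotlib 3.10.9.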

Additional observations from a re-analysis of the deposited data

How the results depend on the processing

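The number of loci that differed was 7564 to 11856 over the alternatives in filter, pseudocount, scaling, weights and test. The lowest was of 10845 loci tested with a filter of 50, and the highest of 22826 tested with no filter. Among the alternatives that tested the same 15317 loci, it was 9462 to 10916. When a library was left out it was 9144 to 10101. No locus called in 2 settings changed direction between the fit reported and any other. With a 2-fold minimum added, 6149 loci differed, 2941 higher in root and 3208 in shoot. With a filter of 50, which left 10845 loci, 787 were at least 4-fold higher in root and 1374 in shoot, so the root count fell by more than the shoot count. Loci read in 1 tissue only were 215 for root and 79 for shoot with at least 20 reads, and 519 and 258 when 1 read per library was allowed in the other tissue. They ranged from 343 to 444 for root and 127 to 182 for shoot without 1 library. The next locus was in the same class for 24.6% (root) and 25.4% (shoot) with classes at 2-fold, where 18.4% and 20.6% were found 50 loci away, and for 16.9% (root) with a filter of 50, against 4.77% at 50 loci. Under quantile scaling the log2 difference of Solyc01g111170.3 was 1.05 and of Solyc05g010425.1 was 0.47, and with total-read scaling 0.29 and 0.32. The cause was not tested.

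A fit with the replicate number as a block gave 10117 loci, 9923 of them shared with the fit reported. Deviations of same-numbered root and shoot libraries correlated at 0.0448, 0.0447 and 0.0866, so the numbers were not taken as pairs, although each library correlated best with its own number. The gene-list alternatives were not run. Depth limits the loci with few reads, above all in mock shoot replicate 3.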
